A study of Rattus norvegicus with 10 samples.

Results

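Genes that encode proteins of the mitochondrial ribosome were described in rat prefrontal cortex after early life stress. They were taken from the deposited expression table by symbol, as the letters Mrpl or Mrps followed by a number and at most 1 further letter, with a mean of at least 0.5 RPKM over the 10 libraries. RPKM is a read count scaled by gene length and by the library's total reads. Of 16041 genes in the table, 71 had such a symbol, all 71 met the minimum, and all 71 were among the 14642 genes tested. RNA came from male Sprague-Dawley rats, with 5 libraries of rats raised under limited nesting (ELS) and 5 libraries of Control rats. Limited nesting, in which the dam has little material to build a nest, ran from postnatal day 2 to postnatal day 9, and the cortex of both groups was taken at postnatal day 91. Per the labels there was 1 tissue sample behind each library, with no word on litters, so the p-values cover only the spread between these samples, which may be technical in part.

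Mitochondria keep their own ribosome, which translates the few proteins that the mitochondrial genome encodes, all of them core subunits of the respiratory chain and the ATP synthase. Its rRNAs are transcribed inside the organelle, whereas every one of its proteins is encoded in the nucleus, made in the cytosol and imported. Some of these proteins descend from bacterial ribosomal proteins and others occur only in mitochondria. Neurons depend on oxidative phosphorylation to fuel synaptic activity, and inherited defects of mitochondrial ribosomal proteins cause respiratory chain disease in humans.

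The symbols do not follow the subunits throughout. Of the 71 genes, 44 encode proteins of the large subunit, including Mrps18a and Mrps30, whose proteins were named after the small subunit but sit in the large one. Another 26 encode proteins of the small subunit. The remaining gene, Mrps36, is listed in RefSeq under the name Kgd4, for a component of the 2-oxoglutarate dehydrogenase complex, and was counted in neither subunit. The set is not complete. No row of the deposited table carried the symbols Mrpl1, Mrpl9, Mrpl11 or Mrpl24, for example, so sums over the members do not cover the whole ribosome.

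Library totals ran from 18838898 to 22311136 reads, with 19876034 ± 784379 in ELS and 20861443 ± 1238653 in Control libraries (mean ± SD, n = 5 in each group; exact permutation test, two-sided, p = 0.175). The share of these reads in the listed genes was 73.0 ± 0.790% in ELS and 71.9 ± 0.529% in Control libraries (exact permutation test, two-sided, p = 0.0397). Estimated sample quality weights were lowest for Control replicate 4, at 0.185, and lay between 0.728 for ELS replicate 2 and 2.37 for ELS replicate 5 in the remaining libraries. Both ELS replicate 2 and Control replicate 4 had stood apart in earlier results of these data, and the counts of members are therefore also given without them. Between 69 and 1137 reads fell on a member in any 1 library, and the median over the members was 333. Only Mrpl49 and Mrpl40 had a library with fewer than 100 reads. Counting error alone gave a median SD of 0.079 on the log2 scale for a member, against a median SD of 0.092 observed between libraries of a group.

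The levels of the mitochondrial ribosomal protein genes were spread less than those of all genes tested. Their mean levels over the 10 libraries had a median of 14.1 RPKM, with quartiles of 9.70 and 20.7 RPKM, a ratio of 2.13. Over all genes tested the median was 7.20 RPKM and the ratio of the quartiles was 6.94. From the lowest to the highest member the levels spanned 21.1-fold, from 2.44 to 51.4 RPKM. Large subunit genes had a median of 15.0 RPKM and small subunit genes one of 13.0 RPKM.

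Mrpl17, for a large subunit protein with a bacterial homologue, had the highest level of all members. It was at 52.7, 49.7, 54.8, 53.8 and 52.5 RPKM in the ELS libraries, against 49.1, 47.2, 51.0, 54.5 and 48.6 RPKM in the Control libraries. The groups overlapped, since the highest Control library came within the range of the ELS libraries. Mrpl33 followed with 42.6 ± 2.13 RPKM in ELS and 44.2 ± 1.78 RPKM in Control libraries (SD, n = 5 each). This gene is the shortest of the members, at 236 bases. After these came Mrpl54, a protein found only in mitochondria, Mrpl20, and Mrpl27, whose bacterial homologue lies close to the peptidyl transferase centre. Mrpl54 averaged 35.7 ± 1.37 RPKM in ELS and 35.3 ± 3.05 RPKM in Control libraries. Mrpl20 averaged 36.3 ± 1.77 RPKM in ELS and 34.3 ± 1.97 RPKM in Control libraries. Next came Mrpl27 with 30.6 ± 1.60 RPKM in ELS and 29.4 ± 1.42 RPKM in Control libraries. Mrpl54 and Mrpl20 lay closer to each other than the spread between libraries. All 5 of the highest members belong to the large subunit.

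The lowest members belong to the large subunit as well. Mrpl40, a protein found only in mitochondria, was at 2.53, 2.19, 1.95, 2.84 and 2.65 RPKM in ELS libraries and at 2.00, 2.38, 2.69, 2.86 and 2.31 RPKM in Control libraries. Mrpl47, the counterpart of bacterial L29, averaged 3.26 ± 0.149 RPKM in ELS and 3.08 ± 0.307 RPKM in Control libraries. Mrpl50 averaged 5.50 ± 1.02 RPKM in ELS and 5.27 ± 0.854 RPKM in Control libraries. The ranges of the groups overlapped in each of these 3 genes. Most of these proteins occur in a single copy per ribosome, while their transcripts spanned the range of levels given above.

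**Figure D1:**
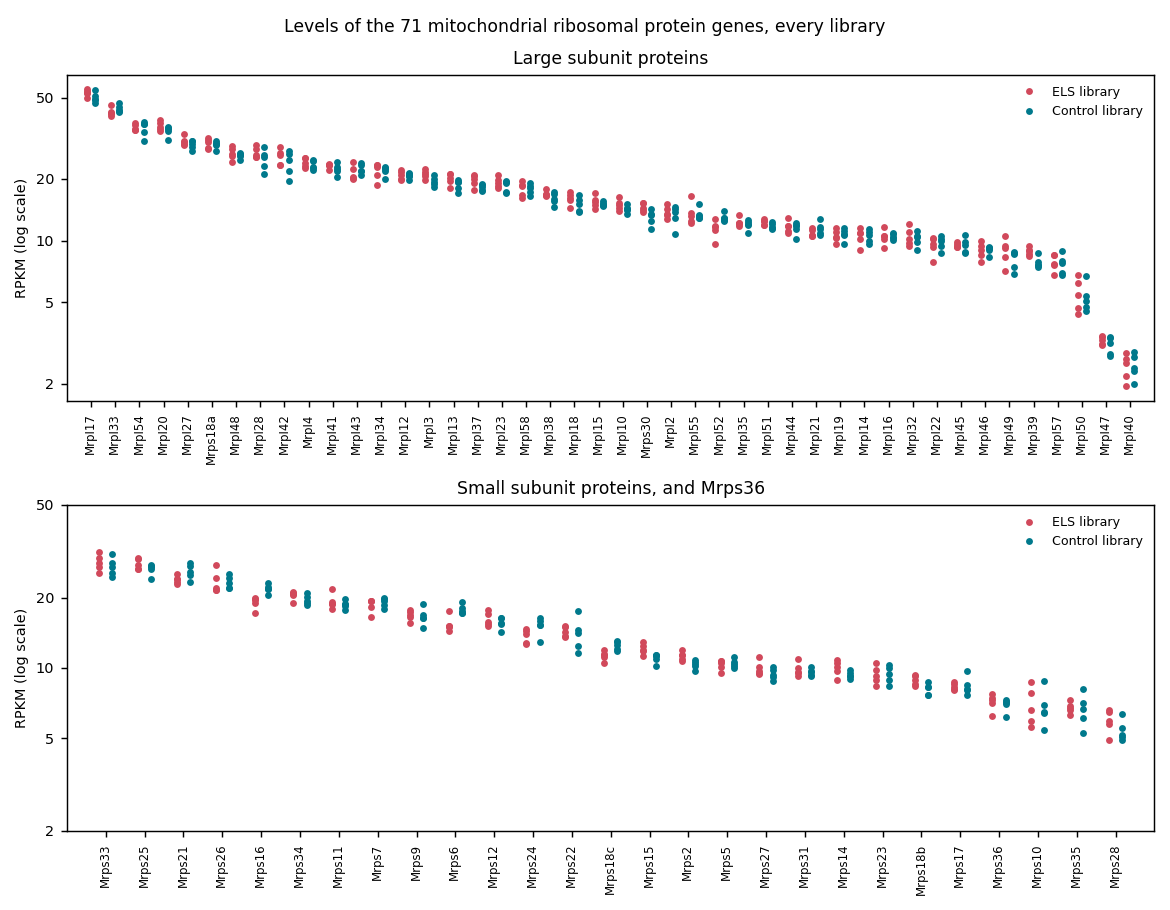
RPKM (log scale) of each of the 71 genes in every library, large subunit genes in the upper panel and small subunit genes with Mrps36 in the lower one, ordered by mean level. Each point is 1 library, ELS to the left and Control to the right of each pair. Most members lie between 5 and 30 RPKM, and the points of ELS and Control libraries overlap for nearly all of them.

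None of the 71 members passed an adjusted p of 0.05 between ELS and Control libraries (limma on the log2(RPKM + 0.1) scale, two-sided, Benjamini-Hochberg adjustment over all 14642 genes tested), and 0% of all genes tested passed. Limma-voom on whole reads recovered from the table gave 0 members as well. At an unadjusted p under 0.05 there were 9 members, 12.7% of them, against 20.4% of all genes tested. Of these 9, 5 had a higher and 4 a lower mean in ELS, where 10.1% and 10.3% of all genes tested were past that p in the higher and the lower direction. The members' share lay below that of all genes in this comparison. The lowest adjusted p of any member was 0.133. Fold changes on this scale understate the change of genes with low values.

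More members had a higher mean in ELS than a lower one, by small amounts. In 51 members the mean was higher in ELS and in 20 it was lower, and the median log2 fold change was 0.037, equal to 2.59%. Here and in the gene lists below, higher and lower means were counted on the log2 scale of the test. Over all genes tested the median was 0.0037 and 50.6% had a higher mean in ELS. Among genes within the members' range of mean level the median was 0.015 and 53.7% had a higher mean. The values of the members ran from -0.21 to 0.18. The members' median thus lay 0.033 above that of all genes tested, and less far above that of genes at their level. Upper-quartile scaling between libraries moved all genes alike, to a median of -0.015 over all genes and 0.018 over the members with 27 members lower, and the members' median still lay 0.033 above that of all genes. The share of reads in listed genes, given above, also differed between the groups, and its part in the tilt was not tested.

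The standard errors of the members were small. Their median was 0.061 on the log2 scale, against 0.098 over all genes tested and 0.082 among genes within the members' range of mean level. The cytosolic ribosomal protein genes, described below, had a similar median of 0.065. For 65 of the 71 members, 91.5%, the whole 95% interval of the fold change lay within 1.25-fold in either direction. Of all genes tested 46.2% did so, and of genes within the members' range of mean level 58.2% did so. The 1.25-fold band was chosen after the fits of the members had been seen. The interval of Mrps6 and Mrpl52 reached beyond the band on the lower side, and that of Mrps28, Mrpl49, Mrpl50 and Mrps10 on the higher side.

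**Figure D2:**
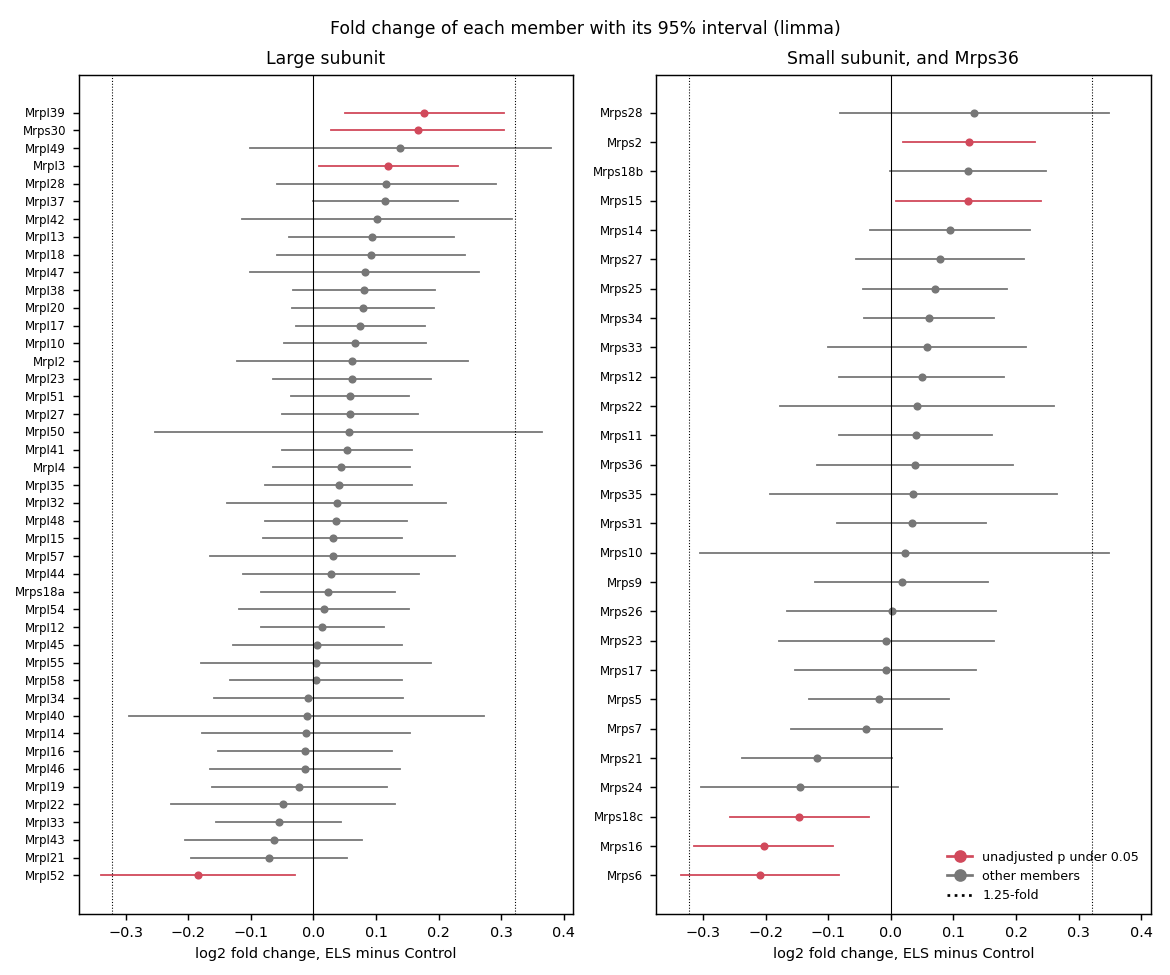
Log2 fold change of each member, ELS minus Control, with its 95% interval from limma, large subunit genes on the left and small subunit genes with Mrps36 on the right. Dotted lines mark 1.25-fold, and red marks the 9 members with an unadjusted p under 0.05. The values run from -0.21 for Mrps6 to 0.18 for Mrpl39, and most intervals cross 0.

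The 2 members with the lowest p encode proteins of the small subunit that have bacterial homologues. Mrps16 (ENSRNOG00000006898), which is needed for a stable small subunit and is mutated in a human respiratory chain disorder, had the lowest p. It was at 17.2, 19.0, 19.5, 19.7 and 19.9 RPKM in the ELS libraries, against 21.8, 22.3, 20.6, 23.2 and 21.9 RPKM in the Control libraries. All 5 ELS libraries lay below every Control library. The log2 fold change was -0.20 ± 0.05 (SE; limma, adjusted p = 0.133), and its 95% interval ran from -0.31 to -0.09. Mrps16 was the 1 member whose groups did not overlap in the lower direction, where 2.6% of all genes tested had such groups, and 0 members had them in the higher direction, where 3.08% of all genes tested did. RefSeq lists 2 pseudogenes named after Mrps16, and reads of near-identical copies could be split or shared in the counting.

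Mrps6 (ENSRNOG00000059381), whose bacterial homologue pairs with protein S18 on the platform of the small subunit, came second. It was at 15.2, 15.0, 17.5, 15.0 and 14.4 RPKM in the ELS libraries, against 17.2, 17.1, 17.6, 19.0 and 18.1 RPKM in the Control libraries. The ELS libraries other than replicate 3 lay below every Control library, and replicate 3 lay among the Control libraries. The log2 fold change was -0.21 ± 0.06 (SE; limma, adjusted p = 0.133). The span of Mrps6 overlaps that of Slc5a3 in the RefSeq annotation, so reads of the overlap cannot be assigned with certainty.

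Mrps18c is 1 of 3 mammalian genes descended from bacterial S18, and its protein is the one that takes the place of S18. Its level was 11.1, 11.4, 11.4, 10.5 and 11.97 RPKM in ELS libraries and 12.6, 12.1, 13.1, 12.9 and 11.7 RPKM in Control libraries. Only ELS replicate 5 reached the Control range. The log2 fold change was -0.15 ± 0.05 (SE; limma, adjusted p = 0.166). The paralogue Mrps18b, also a small subunit protein, averaged 8.86 ± 0.436 RPKM in ELS and 8.13 ± 0.460 RPKM in Control libraries, a log2 fold change of 0.12 ± 0.06 (limma, adjusted p = 0.248). Mrps18a, the paralogue of the large subunit, averaged 29.9 ± 1.60 RPKM in ELS and 29.4 ± 1.27 RPKM in Control libraries, a log2 fold change of 0.02 ± 0.05 (limma, adjusted p = 0.807). The 3 paralogues thus had values on both sides of 0, and the difference between them was not tested.

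Mrpl52, a large subunit protein found only in mitochondria, was at 11.3, 12.8, 11.6, 9.67 and 11.8 RPKM in ELS libraries, against 12.8, 12.5, 12.6, 13.9 and 12.9 RPKM in Control libraries. ELS replicate 2 lay inside the Control range and the other ELS libraries below it. The log2 fold change was -0.18 ± 0.07 (SE; limma, adjusted p = 0.185). Mrps21, counterpart of bacterial S21, averaged 23.8 ± 0.900 RPKM in ELS and 25.9 ± 1.86 RPKM in Control libraries, a log2 fold change of -0.12 ± 0.05 (limma, adjusted p = 0.251). Mrps24, counterpart of bacterial S3 at the entry of the mRNA channel, averaged 13.7 ± 0.912 RPKM in ELS and 15.1 ± 1.33 RPKM in Control libraries, a log2 fold change of -0.15 ± 0.07 (limma, adjusted p = 0.276). The groups overlapped for both Mrps21 and Mrps24, with 2 ELS libraries of each gene below every Control library.

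On the other side, the member with the lowest p was Mrpl39 (ENSRNOG00000047563), a large subunit protein found only in mitochondria. It was at 8.63, 8.87, 8.37, 9.42 and 9.03 RPKM in ELS libraries, against 7.45, 7.85, 7.58, 7.58 and 8.70 RPKM in Control libraries. In 3 ELS libraries it exceeded every Control library, and Control replicate 5 lay within the ELS range. The log2 fold change was 0.18 ± 0.06 (SE; limma, adjusted p = 0.152).

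Mrps30, the large subunit protein that carries a small subunit name, was at 14.4, 14.0, 13.8, 15.3 and 15.2 RPKM in ELS libraries, against 13.3, 13.5, 11.4, 12.5 and 14.2 RPKM in Control libraries. Again 3 ELS libraries exceeded every Control library. Its log2 fold change was 0.17 ± 0.06 (SE; limma, adjusted p = 0.184). Mrps2, counterpart of bacterial S2, averaged 11.3 ± 0.467 RPKM in ELS and 10.3 ± 0.415 RPKM in Control libraries, a log2 fold change of 0.13 ± 0.05 (limma, adjusted p = 0.185). In 4 of 5 ELS libraries Mrps2 exceeded every Control library.

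Mrpl3, whose bacterial homologue reaches toward the peptidyl transferase centre, averaged 21.1 ± 1.03 RPKM in ELS and 19.5 ± 1.03 RPKM in Control libraries, a log2 fold change of 0.12 ± 0.05 (limma, adjusted p = 0.218). Mrps15, an rRNA-binding protein of the small subunit, averaged 12.04 ± 0.658 RPKM in ELS and 11.0 ± 0.494 RPKM in Control libraries, a log2 fold change of 0.12 ± 0.05 (limma, adjusted p = 0.223). Mrpl37, found only in mitochondria, averaged 19.8 ± 1.32 RPKM in ELS and 18.2 ± 0.603 RPKM in Control libraries, a log2 fold change of 0.11 ± 0.05 (limma, adjusted p = 0.247). In Mrps15 and in Mrpl37, 4 of 5 ELS libraries exceeded every Control library, and in Mrpl3 it was 3 of 5. The span of Mrpl37 overlaps that of Ssbp3, which averaged 39.8 ± 2.22 RPKM in ELS and 35.9 ± 3.60 RPKM in Control libraries, and the part of shared reads was not tested. Mrps2 overlaps Pierce1 in the same annotation.

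Of the 2 members named as examples of bacterial homologues, Mrps12, which lines the decoding centre, averaged 16.2 ± 1.13 RPKM in ELS and 15.6 ± 0.900 RPKM in Control libraries, a log2 fold change of 0.05 ± 0.06 (limma, adjusted p = 0.670). Mrpl12, the stalk protein that recruits translation factors in bacteria, averaged 20.9 ± 1.05 RPKM in ELS and 20.7 ± 0.637 RPKM in Control libraries, a log2 fold change of 0.01 ± 0.04 (limma, adjusted p = 0.884). The 95% interval for Mrpl12 ran from -0.08 to 0.11.

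**Figure D3:**
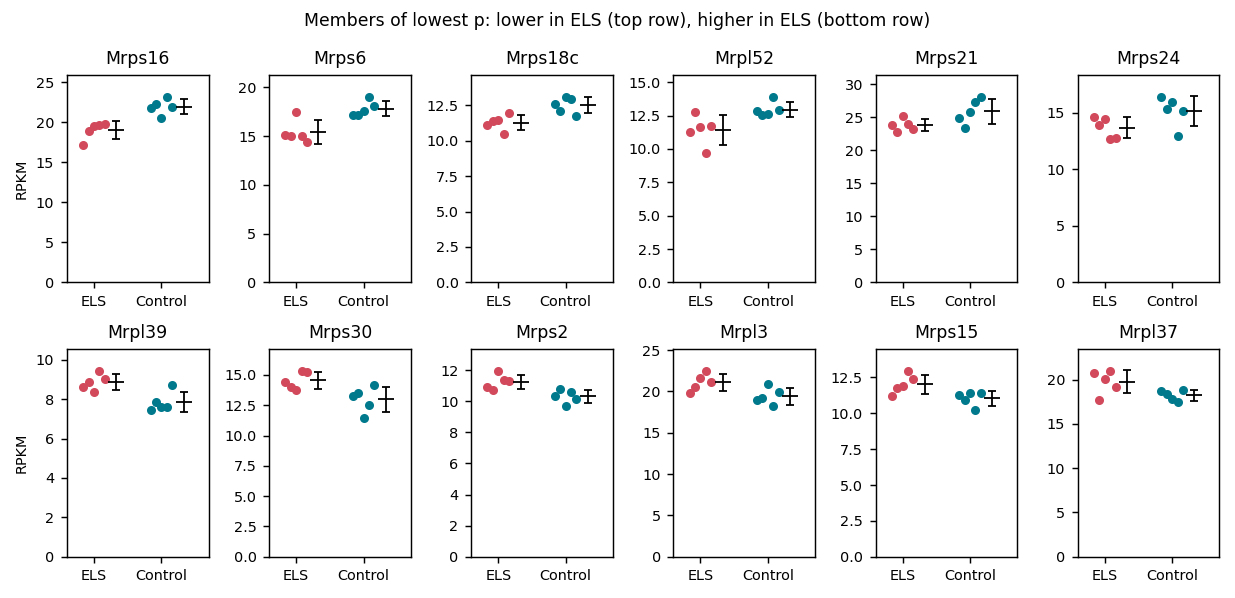
RPKM in every library for the 6 members of lowest p with a lower mean in ELS (top row) and the 6 with a higher mean in ELS (bottom row). Points are libraries, ELS on the left and Control on the right, and the bars beside them are mean ± SD (n = 5). The groups do not overlap for Mrps16 and overlap for the other 11.

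The direction of the members by subunit and origin was as follows. Of the 24 large subunit genes with bacterial homologues 17 had a higher mean in ELS and 1, Mrpl3, had an unadjusted p under 0.05, where 20.4% of all genes tested did in either direction. Of the 19 large subunit genes found only in mitochondria 15 had a higher mean, and 2 with a higher and 1 with a lower mean had such a p. The small subunit genes with bacterial homologues were evenly divided, 8 higher and 8 lower of 16, and 5 of them, 31.2%, had an unadjusted p under 0.05. Of those 5, Mrps2 and Mrps15 had a higher mean and Mrps16, Mrps6 and Mrps18c a lower one. The 9 small subunit genes found only in mitochondria included 8 with a higher mean and 0 with such a p. Mrps18a and Mrps18b, which descend from bacterial S18 but occupy other places than it, and Mrps36 were left out of these classes. The difference between these classes was not tested.

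Summed over the members, the level was 1161, 1133, 1217, 1172 and 1176 RPKM in the ELS libraries, against 1149, 1146, 1153, 1157 and 1151 RPKM in the Control libraries. ELS replicate 2 was the lowest of all 10 libraries and the other ELS libraries were above every Control library. The SD was 4.36 RPKM among Control libraries, against 30.5 RPKM among ELS libraries. The part of counting error in either spread was not tested. The large subunit genes summed to 787.0 ± 22.3 RPKM in ELS and 765.5 ± 2.65 RPKM in Control libraries, and the small subunit genes to 377.7 ± 8.59 RPKM in ELS and 378.7 ± 6.74 RPKM in Control libraries. Members took between 0.126% and 0.134% of a library's reads in ELS and between 0.126% and 0.127% in Control libraries.

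**Figure D4:**
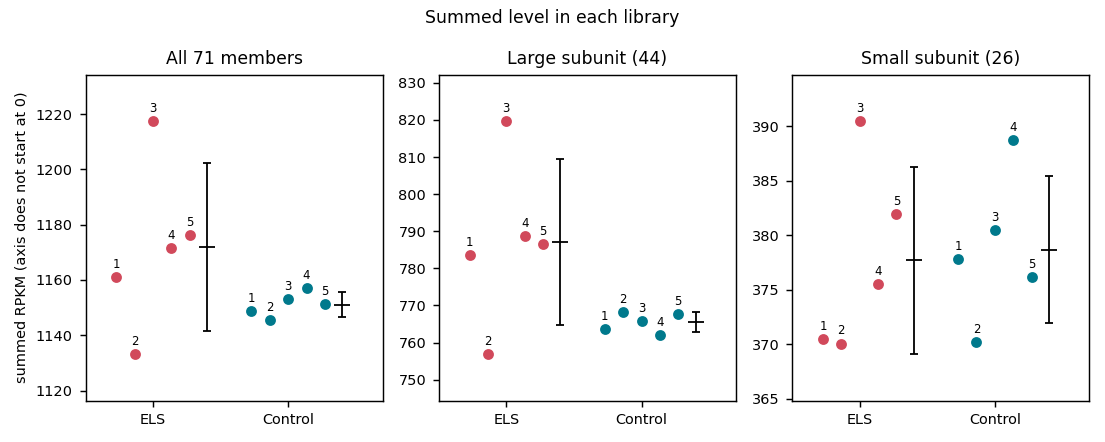
Summed RPKM of all members, of the large subunit genes and of the small subunit genes in each library, numbered by replicate, ELS on the left and Control on the right, with mean ± SD beside the points. The vertical axes do not start at 0. ELS replicate 2 is lowest and ELS replicate 3 highest over all members, while the 5 Control libraries lie between 1146 and 1157 RPKM.

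Leaving out or weighting libraries could change how many genes passed the adjusted threshold. The number of members past it changed only under sample quality weights. Without ELS replicate 2, 444 genes, 3.03% of those tested, passed the adjusted threshold, and 0 members did. Without both ELS replicate 2 and Control replicate 4, 1116 genes or 7.62% passed, and again 0 members did. With sample quality weights, which gave Control replicate 4 a weight of 0.185, 866 genes or 5.91% passed, and among them were Mrps16 (limma, adjusted p = 0.0479) and Mrps6 (limma, adjusted p = 0.0495), or 2.82% of the members.

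Markers of cell types also differed between the libraries. Of all genes tested, 10.1% were higher in ELS past an unadjusted p of 0.05 and 10.3% were lower. Summed levels of 6 neuron markers were 1608 to 1833 RPKM in ELS and 1366 to 1541 RPKM in Control libraries, with 3 of 6 past an unadjusted p of 0.05, all higher in ELS. Summed levels of 6 oligodendrocyte markers were 790.5 to 1033 RPKM in ELS and 1050 to 2181 RPKM in Control libraries, with 6 of 6 past that p, all lower in ELS. For 5 astrocyte markers the sums were 335 to 378 RPKM in ELS and 389 to 586 RPKM in Control libraries (4 of 5 lower past that p), and for 6 microglia markers 80.3 to 96.8 RPKM in ELS and 90.9 to 107.7 RPKM in Control libraries (3 of 6). Control replicate 4 was the highest library for the oligodendrocyte, astrocyte and microglia sums. For oligodendrocyte and astrocyte markers the next highest was Control replicate 3, at 1355 RPKM and 446 RPKM. The 4 rows of the blood list summed to 214 to 438 RPKM in ELS and 411.5 to 981.0 RPKM in Control libraries (4 of 4 lower). Of the endothelial list Flt1 was measured, at 8.67 ± 0.932 RPKM in ELS and 8.65 ± 0.628 RPKM in Control libraries. Of the ependyma and choroid list Ttr was measured, at 0 to 0.994 RPKM in ELS and 0.194 to 31.1 RPKM in Control libraries, the highest being Control replicate 4. In bulk tissue fewer cells of a type and less RNA per cell cannot be told apart, and the part of cell composition in the members' values was not tested.

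The rest of the mitochondrial translation system was described from gene lists, of which 0 genes passed the adjusted threshold. Of 4 mitochondrial ribosomal proteins with other symbols, 1 had an unadjusted p under 0.05, where 20.4% of all genes tested did. In this list 3 of 4 had a lower mean in ELS. The gene past that p was Gadd45gip1, a large subunit protein, at 18.9 ± 0.868 RPKM in ELS and 20.8 ± 0.681 RPKM in Control libraries, a log2 fold change of -0.14 ± 0.04 (limma, adjusted p = 0.151). On the higher side of this list Chchd1, a small subunit protein, had a log2 fold change of 0.05 ± 0.04 (limma, adjusted p = 0.510).

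Of 24 ribosome assembly factors tested 19 had a higher mean in ELS, and 3, or 12.5%, had an unadjusted p under 0.05, all higher in ELS. Of all genes tested 20.4% were past that p, and 10.1% in the higher direction. The rRNA methyltransferase Mrm3 averaged 4.35 ± 0.200 RPKM in ELS and 3.78 ± 0.257 RPKM in Control libraries, a log2 fold change of 0.20 ± 0.07 (limma, adjusted p = 0.165). The others past that p were the GTPase Noa1 and the helicase Dhx30. On the lower side Mpv17l2 had a log2 fold change of -0.13 ± 0.13 (limma, adjusted p = 0.594).

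Of 15 translation factors 8 had a higher mean in ELS. An unadjusted p under 0.05 was found for 1, or 6.67%, against 20.4% of all genes tested. This factor was Lrpprc, which stabilises mitochondrial mRNAs, at 21.3 ± 0.892 RPKM in ELS and 19.2 ± 0.633 RPKM in Control libraries, a log2 fold change of 0.15 ± 0.04 (limma, adjusted p = 0.133). The elongation factor Guf1 had a log2 fold change of -0.15 ± 0.10 (limma, adjusted p = 0.429). Of 19 aminoacyl-tRNA synthetases and related enzymes 2, or 10.5%, had an unadjusted p under 0.05, against the same 20.4% of all genes tested. Yars2 and Fars2 were both higher in ELS, with log2 fold changes of 0.20 ± 0.07 and 0.24 ± 0.10 (limma, adjusted p = 0.173 and 0.213). On the lower side of the synthetases Ears2 had a log2 fold change of -0.24 ± 0.16 (limma, adjusted p = 0.432). Of 15 genes of mitochondrial transcription and RNA processing 0 had an unadjusted p under 0.05. In this list Elac2, a tRNA-processing enzyme, had a log2 fold change of 0.09 ± 0.05 (limma, adjusted p = 0.313), and Mterf1 one of -0.16 ± 0.08 (limma, adjusted p = 0.286).

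The proteins that mitochondrial ribosomes make are encoded by 13 mitochondrial genes, which are transcribed in the organelle. Of these 12 had a lower mean in ELS on the log2 scale and 5, or 38.5%, had an unadjusted p under 0.05, all 5 lower. Of all genes tested 20.4% were past that p, and 10.3% in the lower direction. Mt-nd1, a subunit of complex I, averaged 5866 ± 251.9 RPKM in ELS and 6894 ± 287 RPKM in Control libraries, a log2 fold change of -0.23 ± 0.04 (limma, adjusted p = 0.133). Mt-co2 was the 1 gene without a lower mean on that scale, with a log2 fold change of 0.01 ± 0.07 (limma, adjusted p = 0.971). Its RPKM averaged 9638 ± 437 in ELS and 9639 ± 1067 in Control libraries, a mean slightly lower in ELS. The median over the 13 genes was -0.13, against 0.037 for the nuclear members, and this difference was not tested.

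The proteins of the cytosolic ribosome are encoded by genes with symbols Rpl and Rps, a comparison added after the table had been examined. Of 70 such genes 62 had a lower mean in ELS and the median log2 fold change was -0.09, against 20 of 71 lower and a median of 0.037 for the mitochondrial ones. Their mean level was 33.8 RPKM as a median and 16 of 70, 22.9%, had an unadjusted p under 0.05, against 20.4% of all genes tested. Of these 16, 15 were lower in ELS, a direction in which 10.3% of all genes tested were past that p. The difference between the lists was not tested.

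**Figure D5:**
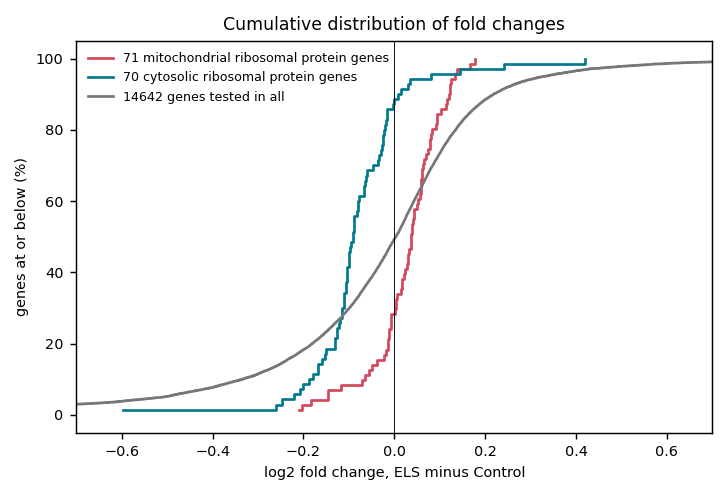
Percent of genes at or below each log2 fold change, ELS minus Control, for the 71 mitochondrial ribosomal protein genes, 70 cytosolic ribosomal protein genes and all 14642 genes tested. The mitochondrial curve is steep and lies right of 0 for most of its length. The cytosolic curve lies left of 0 for most of its length, and the curve of all genes is broader than either.

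The correlation between members from library to library was low. Across the 10 libraries, the mean Pearson correlation between pairs of members, taken on deviations from the group means, was 0.046, with 0.064 within the large subunit and 0.00014 within the small subunit. Genes at the same level gave 0.0075 and all genes 0.0053, while cytosolic ribosomal protein genes gave 0.303. The cytosolic genes had a higher median level, 33.8 RPKM against 14.1 RPKM. Counting error alone gave a median SD of 0.079 for a member, against 0.092 observed. Counting error lowers such correlations, and its part in the low values of the members was not tested. These correlations are descriptions over 10 libraries that share depth and cell makeup, and were computed after the table had been examined. Member genes were also short, with a median length of 1149 bases against 2196 bases over all genes tested, as recovered from the table.

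Promoters were read for members with a start site in the RefSeq table of the GRCr8 build, as windows from 250 bases before to 50 bases after the start. Of the 71 members 54 had 1 such window, and 9276 windows of tested genes served as the comparison. The letters of 6 motifs were searched on both strands. The NRF1 core, CGCATGCG, named for a factor of nuclear genes for mitochondrial proteins, was found in 11.1% of the members' windows, against 3.54% of all windows. The ETS core, CCGGAAG, was found in 31.5% against 16.6%, and the YY1 core, AAGATGGC, in 25.9% against 5.62%. Any of these 3 cores occurred in 55.6% of the members' windows, against 23.3% of all windows. The Sp1 box, GGGCGG, was found in 48.1% against 62.9%, the CCAAT box, CCAAT, in 44.4% against 37.3%, and TATAAA in 13.0% against 6.57%. Matches of 2 motifs overlapped in 1 member, Mrps17, for the CCAAT box and the Sp1 box. The median GC content was 56% for the members and 61.3% for all windows. These are shares of windows that hold the letters, and no difference was tested.

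Most matches of the YY1 core stood close to the start. In 13 of the 14 members that held it the match lay on the gene's strand, and in 12 of 14 it began between 3 bases before and 31 bases after the start. Of 533 matches over all windows 74.1% lay on the gene's strand and 52.3% lay at or after the start, against 11 of 14 for the members. Of the 14 members 11 had a higher and 3 a lower mean in ELS, and the median of their log2 fold changes was 0.046. Over all 71 members 51 had a higher and 20 a lower mean, with a median of 0.037, and the difference was not tested. The match of Mrps6, a member with a lower mean, began 3 bases before the start. The windows of 4 members with low p are shown because they hold the cores in different ways: none in Mrps16, a YY1 core in Mrps6 and in Mrps30, and 2 ETS cores in Mrpl52. They are given 5′ to 3′ on the gene's strand with matches of the 3 cores in capitals, and in Mrpl52 the capitals are the ETS core as read on the other strand.
Mrps16, chr15:3967559-3967858, plus strand: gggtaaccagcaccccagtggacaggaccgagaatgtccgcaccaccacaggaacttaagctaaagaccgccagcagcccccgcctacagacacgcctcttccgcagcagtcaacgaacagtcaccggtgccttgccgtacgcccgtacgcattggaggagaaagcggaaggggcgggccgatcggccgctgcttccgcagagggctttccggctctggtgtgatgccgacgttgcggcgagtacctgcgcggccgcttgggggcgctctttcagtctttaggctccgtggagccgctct
Mrps6, chr11:44778417-44778716, plus strand: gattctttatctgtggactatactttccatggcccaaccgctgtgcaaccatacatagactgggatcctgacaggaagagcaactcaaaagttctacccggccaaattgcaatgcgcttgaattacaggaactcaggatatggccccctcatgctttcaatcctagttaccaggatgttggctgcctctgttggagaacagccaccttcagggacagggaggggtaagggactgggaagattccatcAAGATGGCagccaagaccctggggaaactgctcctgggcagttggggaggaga
Mrps30, chr2:52195855-52196154, minus strand: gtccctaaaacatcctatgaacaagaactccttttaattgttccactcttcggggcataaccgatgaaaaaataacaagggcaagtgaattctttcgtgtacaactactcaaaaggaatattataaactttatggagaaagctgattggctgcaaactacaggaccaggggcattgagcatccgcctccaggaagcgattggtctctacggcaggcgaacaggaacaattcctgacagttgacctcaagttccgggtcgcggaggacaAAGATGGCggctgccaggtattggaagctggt
Mrpl52, chr15:31852686-31852985, plus strand: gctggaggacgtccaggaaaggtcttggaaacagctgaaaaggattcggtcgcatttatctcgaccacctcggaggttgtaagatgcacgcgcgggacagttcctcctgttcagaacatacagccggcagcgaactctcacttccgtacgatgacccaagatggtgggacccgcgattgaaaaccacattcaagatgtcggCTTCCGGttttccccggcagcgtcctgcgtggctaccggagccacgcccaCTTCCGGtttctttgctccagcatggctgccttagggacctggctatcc

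Some of these genes start back to back with a neighbour. Starts on opposite strands were paired where their genes run apart from starts up to 1000 bases distant, or from starts that overlap by up to 200 bases. By this definition 15 of 54 members (27.8%) had a partner, against 8.47% of tested genes with a window. In 1 of these pairs, Mrpl57 with Ska3, the starts overlapped, at a distance of -106 bases. Among the pairs, Mrps18c and Helq lay 72 bases apart, and Mrps11 and Mrpl46, both members, lay 234 bases apart. None of the partners had an unadjusted p under 0.05, where 20.4% of all genes tested did. Helq averaged 1.57 ± 0.153 RPKM in ELS and 1.59 ± 0.149 RPKM in Control libraries, far below Mrps18c. For 15 members, the gene span overlapped that of another protein-coding gene, and 21 members had pseudogenes named after them, 29 in all. Reads of such neighbours and copies could enter the members' counts.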

How the data were processed

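RNA-seq was measured in 5 ELS and 5 Control prefrontal cortex samples. Per the labels' protocols, total RNA was purified on columns, treated with DNase and turned into libraries with a stranded mRNA kit. STAR, featureCounts and the build rn6 are named in the submitters' processing notes. No version, counting strand or annotation release was given in the sources used here, so reads could be shared between overlapping genes and near-identical copies. The authors deposited 1 table of RPKM values, scaled by gene length and library total with no scaling between libraries. Whether these are RPKM or FPKM is not stated in the sources used here. The number of value columns that matched no sample was 0.

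Gene lengths, library totals and whole reads were recovered from the steps of the values for 16015 genes, 100% of those above 0, to within 0.002 reads. A further 26 genes were at 0 throughout. A minimum of 0.5 RPKM in at least 5 libraries took out 1399 genes before testing. ELS was set against Control on log2(RPKM + 0.1) by limma 3.58.1 in R 4.3.3, using its trend and robust options, with two-sided p-values adjusted by Benjamini-Hochberg and called under 0.05. Summaries were made in Python 3.11.15. Each library came from its own tissue sample, and the labels give no batch. On simulated reads of this comparison over 14642 genes, the procedure recovered 60% of 100 genes changed 1.5-fold and 100% of 100 genes changed 2-fold, with 8 false among 168 calls, and made 1 call when no gene was changed. The changed genes were drawn from those above a minimum of reads, with the same dispersion for every gene and no outlying library. Changes as small as those of the members were not simulated.

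The members, the gene lists and the tests were chosen with earlier results of these data known, and so was the setting that leaves out ELS replicate 2 and Control replicate 4. After the table was seen, alias entries were removed from the pathway lists and 1 mitochondrial symbol was respelled as in the table. The cytosolic, co-variation, promoter and neighbour descriptions were added then too. Members were named if they passed the threshold, were among the 6 of lowest p in a direction, the 5 highest or the 3 lowest in level, or were Mrps18a, Mrps18b, Mrps18c, Mrps12 or Mrpl12. In the other lists the gene of lowest p in each direction was named, and further genes with values there were chosen after their values were seen. Alternatives were the pseudocount, the filter, the scaling, limma-voom on recovered reads, sample quality weights, a replicate block and left-out libraries, 20 settings in all. Promoter windows and neighbours came from RefSeq tables of GRCr8, matched by symbol, and no coordinates of the rn6 genes are given.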

Additional observations from a re-analysis of the deposited data

Results flagged for a closer look

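Within groups of 5 libraries, 2 of 54 groups of the named members and summed levels held a library that stood apart from the other four by Dixon's ratio, and chance alone flags about 1 group in 20. Mrps6 in ELS replicate 3 was at 17.5 RPKM, against 14.4 to 15.2 RPKM in the rest of the ELS group. Mrpl52 in Control replicate 4 was at 13.9 RPKM, against 12.5 to 12.9 RPKM in the rest of the Control group.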

How the results depend on the processing

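No member passed the adjusted threshold under 19 of the 20 alternatives. The exception was sample quality weights, under which 866 genes, 2 members (Mrps16 and Mrps6) and 15 members by unadjusted p passed, the 15 being 21.1% of members against 26.9% of all genes. Leaving out ELS replicate 2 and Control replicate 4 together gave 1116 genes and 14 members by unadjusted p, 19.7% against 26.0% of all genes. Leaving out 1 library at a time gave 0 to 444 genes, 444 without ELS replicate 2 and 1 without ELS replicate 5, and 6 to 12 members by unadjusted p, 8.45% to 16.9% against 14.6% to 22.6% of all genes. Under each of the 20 alternatives the share of members past the unadjusted p lay below that of all genes. The median log2 fold change of small subunit genes ran from -0.0044 to 0.044 when 1 library was left out at a time, with the lowest value without Control replicate 2, and that of all members from 0.030 to 0.046. Upper-quartile scaling moved all genes alike, with a median of 0.018 over the members and -0.015 over all genes. Deviations of libraries with the same replicate number correlated between -0.0817 and 0.0658, which cannot exclude a pairing of samples. For ELS replicates 2 and 5 the Control of highest correlation had the same number, and for the others it did not. With the replicate block 5 members, 7.04% against 17.1% of all genes, had an unadjusted p under 0.05 and 0 passed the adjusted threshold. Of the named members, Mrpl54, Mrpl50, Mrpl40, Mrps18a, Mrps12 and Mrpl12 had a fold change of the other sign under at least 1 alternative. The cause of these shifts was not tested. Depth limits Mrpl49 and Mrpl40 most, with fewer than 100 reads in a library.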
